A study of Saccharomyces cerevisiae with 12 samples.

Results

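Wild-type yeast was grown in medium in which an npl3 deletion strain had been cultured before, and its transcript levels were compared with those of wild-type yeast grown in medium that a wild-type strain had used. The comparison rests on 4 of the 12 arrays of the series, which were chosen by their sample labels, 2 for npl3 medium and 2 for the wild-type medium hybridized with it, and it is described across all 6388 gene probes. The cells on all 4 arrays were strain BY4742, labelled DL009-wt, a MATalpha laboratory strain of Saccharomyces cerevisiae with deletions in several auxotrophy genes, so no cell that gave RNA carried the npl3 deletion. The donor strain, npl3 or wild type, grew for 2 doublings in synthetic complete medium (2% glucose), its cells were spun out and the supernatant was filtered, and fresh wild-type cells were then cultured in that filtrate for a further 2 doublings. The study asked whether a slow-growing strain alters its medium in a way that shifts gene expression in other cells. A second donor strain, cbf1, was profiled in the same set of arrays with the same wild-type medium, and a second set held bur2, cho2 and another wild-type medium, also with 2 arrays each.

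Npl3 is an abundant RNA-binding protein with arginine- and glycine-rich repeats that takes part in mRNA export, splicing and translation, and strains without it grow slowly. Conditioned medium can be poorer in glucose, amino acids and metals than fresh medium and holds what the donor cells excreted, such as ethanol, organic acids and mating pheromone. Yeast answers many stresses, and slow growth, with a shared programme in which genes of chaperones, trehalose and glycogen are induced and genes of ribosome assembly are repressed, largely under the control of protein kinase A and TOR.

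Each array compared 1 sample with a common wild-type reference RNA taken from a single culture, and every level below is a log2 ratio of sample over reference. Array 1 of each medium had the sample in Cy3 and array 2 had it in Cy5, per the labels of each array, so that the array number and the dye cannot be told apart. The series text gives Cy5 to the sample of a first hybridization and swaps the dyes for the replicate, without saying which array came first. Were the labelled dyes reversed, every difference printed here would change its sign, and no count of calls would change. The series text speaks of independent cultures and the study's methods of dye swaps of biological replicates, so n counts arrays, and p-values measure the spread between arrays, which may be technical. On the 4 arrays 81.0% to 84.7% of spots were over 2 times the local background in both channels, and duplicate spots differed by a median of 0.027 to 0.033. Alpha-cell genes lay 43.2 to 443 times over background, and the a-cell genes 1.23 to 3.22 times. LEU2 and URA3, deleted in this strain, lay 1.06 to 1.18 times over background, LYS2 1.92 to 3.03 times and HIS3 4.13 to 6.86 times, with the place of the probes relative to the deletions not given.

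Before any test, the pair of wild-type arrays stood apart from the other groups. Across the 6388 probes array 1 and array 2 of wild-type medium correlated with r = 0.667, the lowest value among the 6 media, against 0.817 for the npl3 arrays and 0.708 to 0.776 for the other 4 media. These coefficients are across genes, which are not independent replicates, and all arrays share the reference. Array 2 of npl3 medium correlated with array 2 of wild-type medium at r = 0.925, and array 1 of npl3 medium with array 1 of wild-type medium at r = 0.814. Results are therefore given for the mean of both arrays and, for the genes and lists described at length, for each array pair (npl3 medium minus wild-type medium within array 1, called pair 1, and within array 2, called pair 2), and, where they differ, without 1 of the wild-type arrays.

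No transcript passed the test in npl3 medium. With limma over all 12 arrays, 0 of 6388 probes (0%) reached an adjusted p under 0.05, and the smallest adjusted p was 0.997. An unadjusted p under 0.05 was found for 181 probes (2.83%), 76 higher (1.19%) and 105 lower (1.64%), whereas 319.4 are expected at that limit where nothing differs. The median absolute difference between the media was 0.030 on the log2 scale and the median SE was 0.049. No probe differed by more than 1.7-fold, the fold limit used in the study (0.766 on the log2 scale), and 6377 probes (99.8%) had a 95% interval of their difference inside that fold. In bulk RNA compared as centred ratios, fewer cells of a type and less RNA per cell cannot be told apart. For 934 probes (14.6%) the levels of the 2 media did not overlap, 473 with both npl3 arrays above both wild-type arrays (7.4%) and 461 with both below (7.22%). Of 13 other settings 11 also gave 0 calls. Leaving out each of the 4 arrays in turn gave 0 calls as well, except for array 2 of wild-type medium, without which 36 probes were called. Keeping duplicate spots apart gave 6 calls, and using the 4 wild-type arrays of both sets as control gave 8.

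The array pairs did not order the genes alike. Pair 1 and pair 2 correlated across probes with r = -0.362, and 40.4% of probes had the same sign in both. For cbf1 medium, which shares the wild-type arrays, the values were -0.392 and 41.0%. With the wild-type arrays of the second set they were 0.224 and 50.6% for bur2 medium and -0.020 and 46.6% for cho2 medium. The spread of the differences was wider in pair 1, with an SD of 0.122 against 0.082 in pair 2. Over 1.7-fold, pair 1 held 10 probes that were lower in npl3 medium (0.157%) and none that were higher (0%), and pair 2 held 0 either way (0%). The 10 probes, chosen after their values were seen, included the hexokinase gene HXK1 and the heat shock genes HSP12, HSP104, HSP78 and HSP42. The others were the trehalose and glucose phosphate genes TSL1 and PGM2, and RTC3, PNC1 and TFS1. The differences of the 10 probes in pair 1 ran from -1.45 to -0.79, and all 10 had the opposite sign in pair 2, from 0.12 to 0.41. Both pairs were higher by more than 0.1 for 51 probes (0.798%) and lower by more than 0.1 for 32 probes (0.501%).

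**Figure D1:**
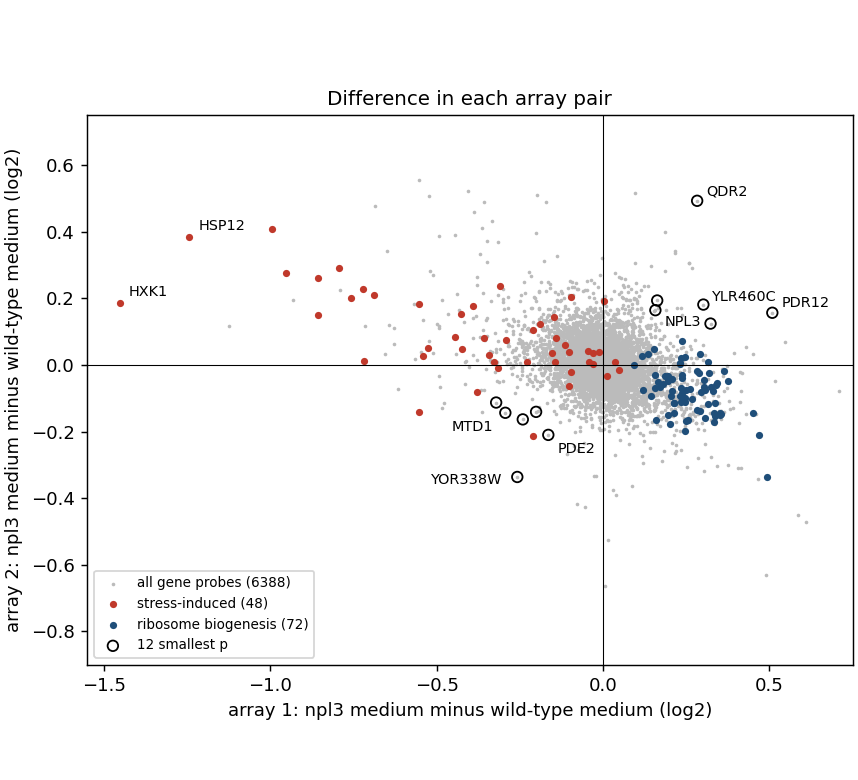
Difference between npl3 medium and wild-type medium (log2) of every gene probe in pair 1 (horizontal axis) and in pair 2 (vertical axis), with listed gene groups coloured. Stress genes extend to -1.45 on the horizontal axis while most of them lie above 0 on the vertical axis, and ribosome biogenesis genes lie on the opposite sides.

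Genes induced by stress lay lower in npl3 medium on average, but only against the first wild-type array. Of 48 listed stress genes 42 were lower and 6 higher, where 49.2% of all probes were lower and 50.8% higher, with a median difference of -0.12 beside 0.00076 over all probes, and none passed the adjusted test. The median level of the list was -0.26 and -0.18 on the npl3 arrays and 0.031 and -0.24 on the wild-type arrays. Array 2 of wild-type medium thus lay between the npl3 arrays, and array 1 lay above all of them, close to the 6 arrays of the second set, which spanned 0.019 to 0.061. Both cbf1 arrays of the same set had a median of -0.13, above both npl3 arrays and below array 1 of wild-type medium. Array 1 of wild-type medium was the highest of the 4 arrays for 40 of the 48 genes (83.3%), as it was for 29% of all probes. In pair 1 the list had a median of -0.31 with 44 genes lower, and in pair 2 a median of 0.055 with 40 genes higher. Without array 1 of wild-type medium the median difference was 0.040, and without array 2 it was -0.28. The levels of the 2 media did not overlap for 6 genes, all lower (12.5%, beside 7.22% of all probes lower without overlap).

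The size of this split differed among the roles within the list. The 9 genes of heat shock proteins and chaperones had a median difference of -0.25, with medians of -0.72 in pair 1 and 0.19 in pair 2. The 13 carbon metabolism genes of the stress response had a median of -0.16, with -0.36 and 0.080 in the pairs. For the 18 general stress and cell surface genes the median was -0.047, with -0.20 and 0.038 in the pairs, and for the 8 genes of oxidative defence it was -0.048, with -0.12 and 0.040. HXK1, which encodes a hexokinase that is repressed on high glucose, had levels of -1.15 and -0.65 on the npl3 arrays and 0.30 and -0.83 on the wild-type arrays. The second wild-type value fell between the npl3 values, and the mean difference of -0.63 had an SE of 0.31 (n = 2 arrays per medium). HSP12, a membrane-stabilizing heat shock protein, was at -0.31 and 0.30 in npl3 medium and at 0.93 and -0.087 in wild-type medium, and HSP104, the disaggregase, was at -0.86 and -0.65 against 0.13 and -1.06. For both, the highest of the 4 arrays was array 1 of wild-type medium and the groups overlapped, with mean differences of -0.43 ± 0.30 and -0.29 ± 0.26 (SE). HSP12 and HSP104 were chosen after their values were seen.

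Of the 48 stress genes 4 (8.33%, beside 2.83% of all probes) had an unadjusted p under 0.05, all of them lower and all with levels that did not overlap. These were HOR7, a gene induced by high osmolarity, the secreted glycoprotein gene YGP1, the cell wall gene SPI1 and the aldehyde dehydrogenase gene ALD2. SPI1 had levels of -0.14 and -0.27 in npl3 medium and of 0.08 and -0.06 in wild-type medium, and a difference of -0.21 in each pair. YGP1 lay at -0.23 and -0.24 against 0.15 and -0.16. SPI1 therefore differed to the same extent on both arrays, whereas ALD2 differed by -0.31 in pair 1 and by -0.01 in pair 2.

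Genes of trehalose and glycogen, the reserve carbohydrates of yeast, showed the same split. Of 20 genes 18 were lower, with a median of -0.15. The median levels were -0.31 and -0.17 on the npl3 arrays and -0.002 and -0.18 on the wild-type arrays, so 1 wild-type array again lay at the level of npl3 medium. All 20 genes were lower in pair 1 (median -0.33) and 17 were higher in pair 2 (median 0.052), and array 1 of wild-type medium was the highest of the 4 for 18 genes (90%). Levels did not overlap for 3 genes, all lower (15%, beside 7.22% of all probes lower without overlap). The same 3 had an unadjusted p under 0.05 (15%, beside 2.83%). These were the neutral trehalase gene NTH2 (-0.18 ± 0.058, SE), the glycogen branching enzyme gene GLC3 (-0.17 ± 0.069) and TPS3, a regulatory subunit of trehalose synthase (-0.12 ± 0.048). TSL1, another subunit of that enzyme, was at -0.91 and -0.72 in npl3 medium and at 0.02 and -0.91 in wild-type medium.

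Genes of ribosome biogenesis, which build ribosomal subunits in the nucleolus, mirrored the stress genes. Of 72 genes 71 were higher in npl3 medium, with a median difference of 0.083. Their median level was 0.41 and 0.30 on the npl3 arrays and 0.16 and 0.39 on the wild-type arrays. Array 1 of wild-type medium was the lowest of the 4 arrays for 65 of 72 genes (90.3%, beside 31.5% of all probes), whereas array 2 lay between the npl3 arrays. All 72 genes were higher in pair 1 (median 0.25) and 62 were lower in pair 2 (median -0.075), and without array 1 of wild-type medium the median difference was -0.025. The 4 roles had like medians, from 0.066 for RNA polymerase I to 0.10 for box C/D and H/ACA particles. Levels did not overlap for 10 genes, all higher (13.9%, beside 7.4% of all probes higher without overlap). An unadjusted p under 0.05 was found for 5 of the 72 (6.94%, beside 2.83%). CBF5, the pseudouridine synthase of H/ACA particles, was at 0.39 and 0.16 in npl3 medium and at 0.10 and 0.13 in wild-type medium (0.16 ± 0.057, SE), a difference made almost wholly in pair 1. RRP9, a U3 particle protein, lay at 0.40 and 0.35 against 0.24 and 0.30, and the other 3 were NSA1, UTP5 and RRS1. The 128 probes of ribosomal proteins had a median difference of 0.0050, with 0.024 and -0.018 in the pairs.

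**Figure D2:**
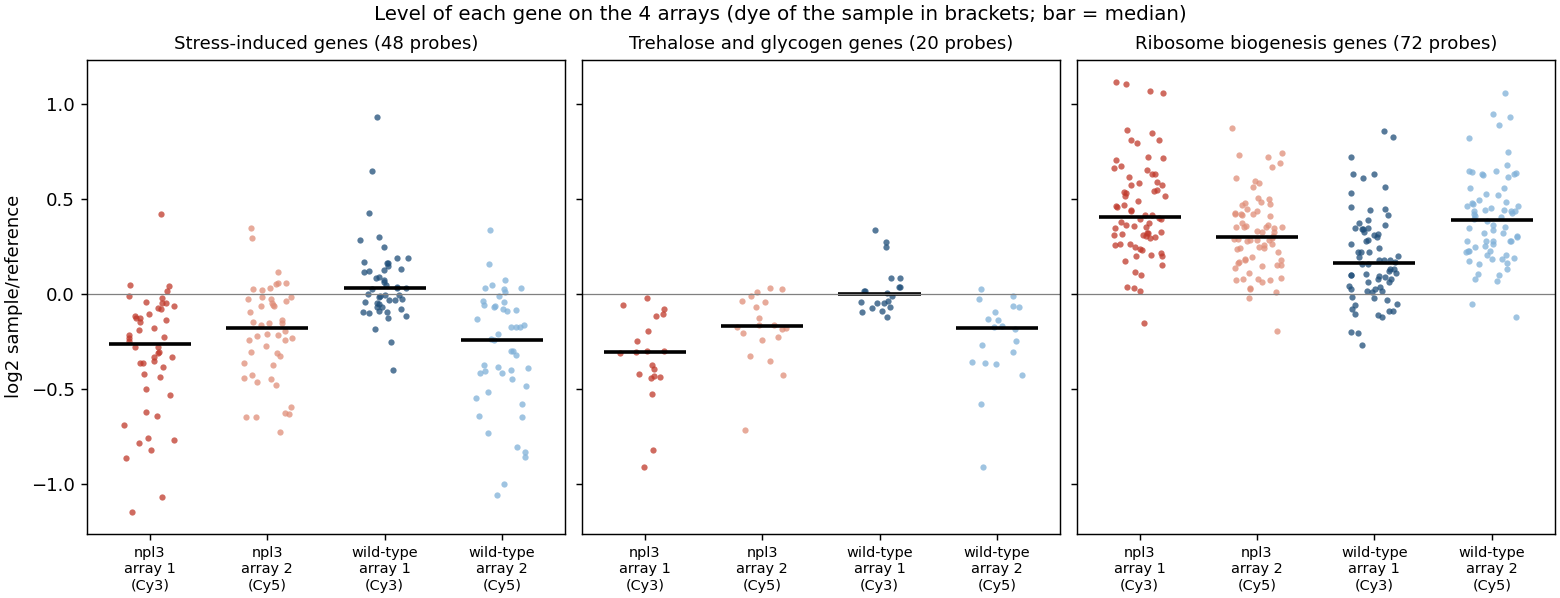
Level (log2 sample over reference) of every listed stress, trehalose and glycogen, and ribosome biogenesis gene on each of the 4 arrays, with bars at the medians and the dye of the sample in brackets. Array 1 of wild-type medium is the highest for stress genes, with a median of 0.031, and the lowest for ribosome biogenesis genes, with a median of 0.16, while its array 2 lies at the level of npl3 medium.

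The split between arrays 1 and 2 was wider in wild-type medium of the first set than in the other 5 media. The stress list had a median of array 1 minus array 2 of 0.31 in that medium, of -0.082 in npl3 medium, and of -0.037 to 0.0067 in the other 4 media. For ribosome biogenesis genes it was -0.19 in that medium, 0.12 in npl3 medium and -0.031 to 0.022 in the other 4. Over all probes the median was between -0.0093 and -0.00050 in every medium. These values are descriptions with 1 pair of arrays per medium, and whether they come from culture or hybridization was not tested.

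The 12 probes with the smallest p held genes of varied function, from exporters to cell wall proteins. There were 6 higher and 6 lower. Picking by a small p favours agreement between arrays. All 12 had the same sign in both pairs, beside 40.4% of all probes, and 10 had levels that did not overlap, beside 14.6%. Their adjusted p in limma was 0.997 to 1.00, so none passed.

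QDR2, which encodes a plasma membrane drug exporter, had the largest difference of all higher probes. Its levels were -0.21 and 0.03 in npl3 medium and -0.50 and -0.47 in wild-type medium. Both npl3 arrays lay above both wild-type arrays, and the difference was 0.39 ± 0.077 (SE, 95% interval 0.21 to 0.57, n = 2 arrays per medium), or 1.31-fold. QDR2 also differed from wild-type medium by 0.32 in bur2 medium and by 0.19 in cbf1 medium, which shares the wild-type arrays, and by 0.021 in cho2 medium. PDR12, an ABC exporter of weak organic acids, was at 0.82 on both npl3 arrays and at 0.32 and 0.66 in wild-type medium. Its difference of 0.33 ± 0.076 came mostly from pair 1 (0.51, against 0.16 in pair 2). YLR460C, a member of the quinone reductase family, lay at 0.14 and -0.02 in npl3 medium and at -0.16 and -0.21 in wild-type medium, without overlap. It had the smallest p of all, with a difference of 0.24 ± 0.040, at a median signal of both channels only 2.64 times over background.

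ALT2, a paralogue of alanine transaminase, was at -0.02 and -0.06 in npl3 medium and at -0.34 and -0.18 in wild-type medium (0.22 ± 0.048, SE). ALG3, a mannosyltransferase of N-glycosylation, was at -0.08 and 0.14 against -0.24 and -0.05, so the groups overlapped although each npl3 array lay above the wild-type array of its own dye, by 0.16 and 0.19.

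Among the 6 lower probes, MTD1 encodes a cytoplasmic methylenetetrahydrofolate dehydrogenase of one-carbon metabolism. It was at -0.01 and 0.00 on the npl3 arrays and at 0.28 and 0.15 on the wild-type arrays, a difference of -0.22 ± 0.041 (SE) without overlap. PDE2, the high-affinity cAMP phosphodiesterase, had levels of 0.02 and 0.08 against 0.18 and 0.29 (-0.19 ± 0.037). Both genes were lower on each npl3 array than on either wild-type array. YOR338W, of unknown function, had 0.21 and 0.28 against 0.47 and 0.62 (-0.30 ± 0.054) at 2.60 times over background, and had the widest difference of the 6.

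The remaining lower probes were PST1 and DSE1, genes of the cell wall and of daughter cell separation, and YLR257W. DSE1 was at -0.22 and -0.16 in npl3 medium and at 0.02 and 0.01 in wild-type medium (-0.20 ± 0.048, SE), and PST1 at -0.51 and -0.43 against -0.19 and -0.32 (-0.22 ± 0.050). YLR257W overlapped between the media, with a difference of -0.20 in pair 1 and -0.14 in pair 2.

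**Figure D3:**
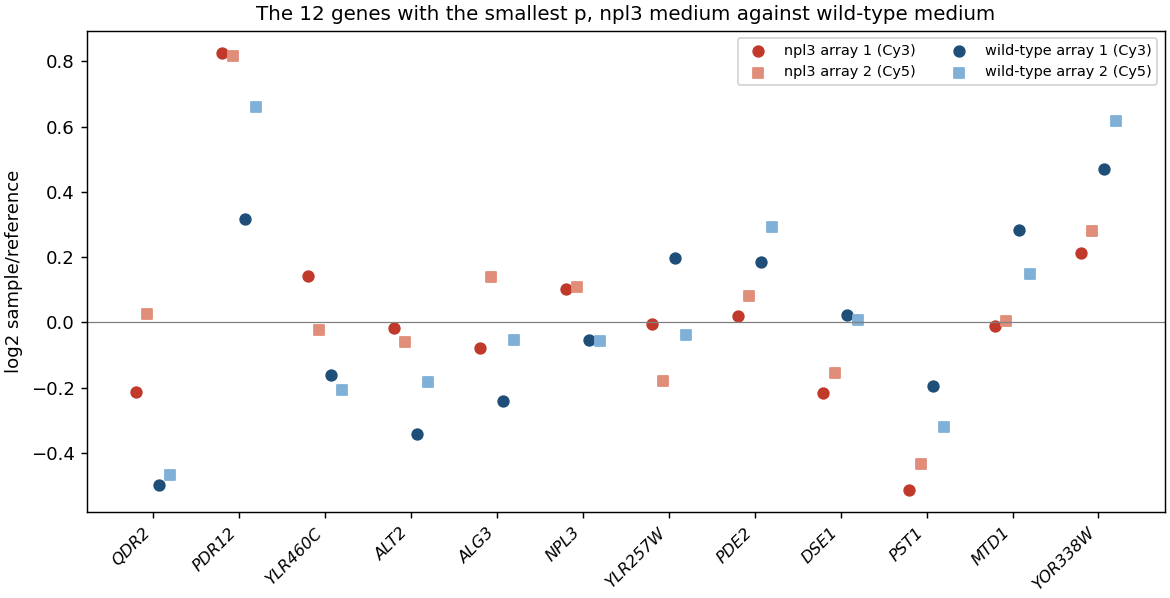
Level (log2 sample over reference) of the 12 genes with the smallest p on the 2 npl3 arrays and the 2 wild-type arrays. From left to right they are ordered by their difference, from the highest to the lowest. QDR2 shows the widest gap, with -0.21 and 0.03 in npl3 medium above -0.50 and -0.47 in wild-type medium. Of the 12 genes 10 have no overlap, beside 14.6% of all probes, which picking by p favours.

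NPL3 itself was measured in cells that carry the gene. Its levels were 0.10 and 0.11 in npl3 medium and -0.05 and -0.06 in wild-type medium, and the difference of 0.16 ± 0.034 (SE, n = 2 arrays per medium) was 0.16 in each pair. It was among the 12 smallest p, with an adjusted p of 1.00 in limma. In the other media the difference of NPL3 from wild-type medium was 0.089 for cbf1, 0.19 for bur2 and -0.0016 for cho2, where cbf1 shares the wild-type arrays and the other 2 do not. Of 15 genes of Npl3 and its mRNA export partners 10 were higher, with a median of 0.075 and medians of 0.036 and -0.0053 in the pairs. An unadjusted p under 0.05 was found for 2 of them (13.3%, beside 2.83% of all probes), NPL3 and SRO9, both already picked by their p or size. The other deleted genes of the series were at 0.010 ± 0.040 (CBF1), 0.016 ± 0.073 (BUR2) and -0.034 ± 0.059 (CHO2), all smaller than their SE.

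The 10 largest higher differences without overlap ran from 0.20 to 0.39, and the 10 largest lower ones from -0.35 to -0.24. As they were picked by size, they are given as a description. For 8 of the higher and 7 of the lower probes the difference was larger in pair 1 than in pair 2, and for 4 and 3 of them it was under 0.1 in pair 2. Beside QDR2, PDR12, YLR460C and ALT2, the higher probes included SRO9, an RNA-binding protein with a La motif (0.31 ± 0.094, SE), the alpha-factor gene MF(ALPHA)2 (0.24 ± 0.087), the chitin transglycosylase gene UTR2 (0.22 ± 0.12) and OPI1, the repressor of phospholipid synthesis genes. SRO9 was at 0.03 and 0.14 in npl3 medium and at -0.06 and -0.38 in wild-type medium, so that its difference was 0.10 in pair 1 and 0.52 in pair 2. OPI1 lay at 0.46 and 0.50 against 0.22 and 0.33 (0.20 ± 0.051), higher on both npl3 arrays. The last probe, SCAB000135, has no gene name.

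SME1, which encodes a core spliceosomal Sm protein, was also among the 10, at 0.31 ± 0.11 (SE), but both channels of array 1 of wild-type medium were at 1.01 times their background. That array gave no measured ratio for SME1, and the pair in which both arrays were above background differed by 0.070. RPC17, a subunit of RNA polymerase III, had a difference of 0.17 ± 0.042, and its spots on array 2 of wild-type medium were at 1.08 and 1.03 times background.

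Among the 10 largest lower differences, 2 genes encode parts of the glycine cleavage system and 1 the catabolic serine and threonine deaminase. GCV2 was at -0.45 and -0.46 in npl3 medium and at 0.03 and -0.35 in wild-type medium (-0.29 ± 0.084, SE), and GCV1 at -0.57 and -0.45 against -0.08 and -0.42 (-0.26 ± 0.095). CHA1, the deaminase, was at -0.76 and -0.65 against -0.27 and -0.58. In all 3 genes both npl3 arrays were the lowest, and the difference was wider in pair 1 (-0.48, -0.49 and -0.49) than in pair 2 (-0.11, -0.03 and -0.07). VID24, a subunit of the complex that degrades gluconeogenic enzymes, lay at -0.10 and 0.10 against 0.38 and 0.23 (-0.31 ± 0.078). HOR7 was at -0.13 and 0.02 against 0.43 and 0.16 (-0.35 ± 0.11), the largest lower difference without overlap. The others were YRO2 (-0.34 ± 0.12), the glycerol phosphatase gene GPP2 (-0.25 ± 0.079), the polyamine exporter gene TPO3 (-0.25 ± 0.074), YLR297W and YOR338W.

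The lists around these genes, which were chosen with results of these data known, give their neighbours. Of the 10 genes of folate metabolism and glycine cleavage 7 were lower, 5 without overlap (50%, beside 7.22% of all probes lower without overlap). An unadjusted p under 0.05 was found for 3 (30%, beside 2.83%), MTD1, GCV2 and GCV1, which their p or size had already picked. These 3 are also among the 5 without overlap, so neither share is support. The medians of the 10 genes were -0.13 in pair 1 and -0.013 in pair 2. SHM2, the cytosolic serine hydroxymethyltransferase, was at -0.13 ± 0.062 (SE). The 10 genes of de novo purine synthesis, the ADE pathway, had 5 higher and 5 lower on average, but 9 were higher in pair 1 (median 0.12) and 8 lower in pair 2 (median -0.11). Over all 30 measured probes of purine and one-carbon metabolism the median was 0.0014, with 0.039 and -0.038 in the pairs. GUA1, the GMP synthetase, at 0.16 ± 0.065, and FCY21, a purine-cytosine permease, at 0.13 ± 0.043, were higher in npl3 medium at an unadjusted p under 0.05. Of the 30 probes, 2 higher and 3 lower had such a p (16.7%, beside 2.83% of all probes). Levels did not overlap for 3 higher and 5 lower probes (26.7%, beside 14.6%). The 5 lower genes without overlap were all among the genes of folate and glycine cleavage. Of the 3 higher ones 2 belonged to purine uptake and the GMP branch and 1 to the ADE pathway.

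In the Ras and protein kinase A pathway, through which glucose is signalled, 17 of 22 measured genes were lower, with a median of -0.050. Levels did not overlap for 6 genes, all lower (27.3%, beside 7.22% of all probes lower without overlap). Apart from PDE2 these included MSN4, an activator of stress genes (-0.09 ± 0.037, SE), and GPR1, the glucose-sensing receptor (-0.08 ± 0.033). MSN4 was at 0.09 and 0.08 in npl3 medium and at 0.16 and 0.19 in wild-type medium. The medians of the list in the pairs were -0.071 and 0.0014. Of the genes that sense and take up glucose, 15 of 32 were higher and 17 lower, with a median of -0.011 (0.0064 and -0.0031 in the pairs). MTH1, a corepressor of hexose transporter genes, was at 0.06 and 0.08 against 0.25 and 0.20 (-0.16 ± 0.040), without overlap, and MIG3, a repressor, was at 0.11 ± 0.039. The 19 genes repressed by glucose had a median of 0.011 (0.0045 and 0.016).

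Of 36 measured genes expressed at the M/G1 boundary 23 were lower, with a median of -0.052 (-0.070 in pair 1 and 0.0062 in pair 2), and 5 had an unadjusted p under 0.05 (13.9%, beside 2.83% of all probes), all lower. DSE1 and PST1 are among the 5, and their p had already picked them. Levels did not overlap for 11 of the genes, 5 higher and 6 lower (30.6%, beside 14.6%). Of the 12 genes of daughter cell separation 10 were lower, with a median of -0.087 (-0.11 and -0.027 in the pairs). Apart from DSE1 they included DSE2, a glucanase-like daughter-specific protein (-0.11 ± 0.037, SE), and AMN1, which inhibits mitotic exit (-0.15 ± 0.055). AMN1 was at -0.03 and -0.12 in npl3 medium and at 0.10 and 0.05 in wild-type medium, without overlap. For genes of other phases the median was 0.0066 for 38 genes of late G1 and S (-0.039 and 0.052 in the pairs), -0.036 for the 8 core histone genes (0.0058 and -0.058) and -0.0011 for 23 genes of G2 and M (0.020 and -0.014).

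The 4 alpha-cell genes had a median of 0.16, and 3 were higher. MF(ALPHA)2 lay at 0.93 and 0.86 in npl3 medium and at 0.50 and 0.81 in wild-type medium, and STE3, the receptor for a-factor, at 0.52 and 0.46 against 0.30 and 0.42 (0.13 ± 0.057, SE). MF(ALPHA)1, the main alpha-factor gene, was at -0.04 ± 0.084. The list had medians of 0.32 in pair 1 and 0.011 in pair 2, so the higher values came from the pair in which wild-type array 1 entered.

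Of 33 measured drug exporter genes and regulators 22 were higher, with a median of 0.018, and 6 higher and 2 lower genes did not overlap (24.2%, beside 14.6% of all probes). QDR2, PDR12 and TPO3 are among these, and their p or size had already picked them, so the share is no support. The medians in the pairs were 0.028 and -0.00062. ATR1, an exporter of the major facilitator superfamily, was at -0.04 and 0.04 against -0.18 and -0.06 (0.12 ± 0.034, SE). The 7-member family of YLR460C was listed because of that gene, so its counts support nothing. Its median was -0.016 with 3 higher and 4 lower, and 4 had an unadjusted p under 0.05 (57.1%, beside 2.83%), YLR460C, YNL134C and YCR102C higher and YIM1 lower (-0.16 ± 0.040). YNL134C was at 0.31 and 0.35 in npl3 medium and at 0.12 and 0.18 in wild-type medium, 0.19 and 0.17 apart in the pairs. The 27 measured genes of sterol and fatty acid synthesis had 21 higher with a median of 0.030 (0.046 and 0.026 in the pairs). Of the 27, 6 were higher without overlap (22.2%, beside 7.4% of all probes), and 0 (0%) had an unadjusted p under 0.05.

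**Figure D4:**
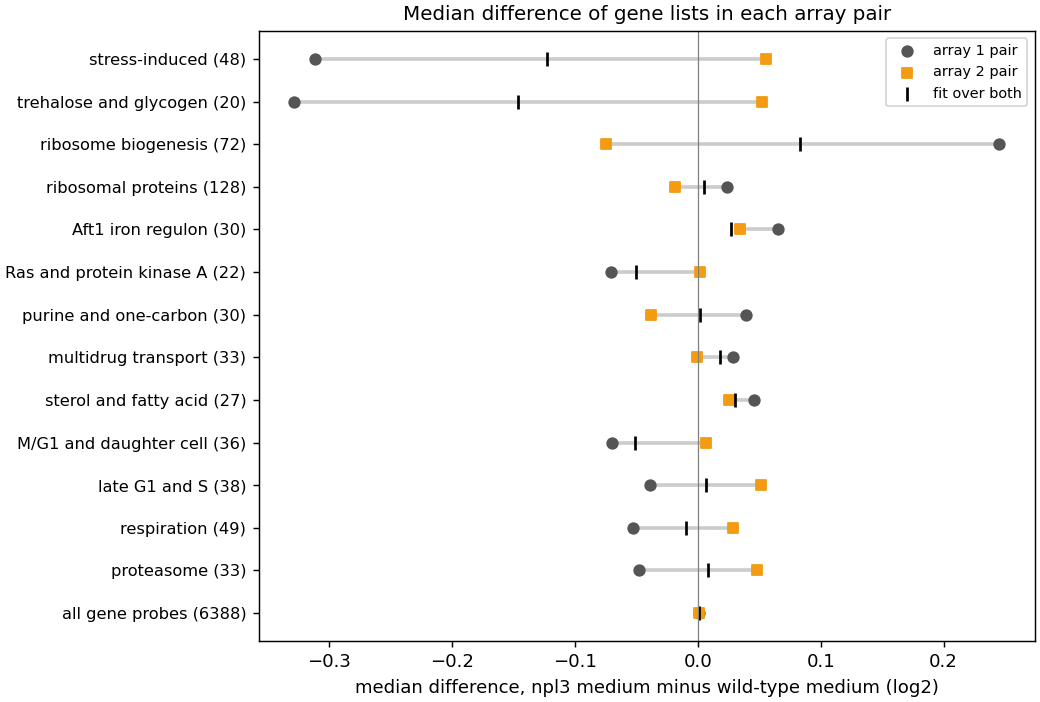
Median difference between npl3 medium and wild-type medium (log2) of gene lists, for the mean of both arrays and for each pair. Stress, trehalose and glycogen, and ribosome biogenesis genes lie on opposite sides of 0 in the pairs (-0.31 and 0.055 for stress), whereas the iron list lies above 0 in both (0.065 and 0.034).

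Genes of the iron regulon, which Aft1 induces when iron is scarce, lay slightly higher in npl3 medium than in wild-type medium, and 2 of them differed between npl3 and cbf1 medium. Of 30 measured genes 25 were higher, with a median difference of 0.027 and medians of 0.065 and 0.034 in the pairs. Levels did not overlap for 10 of the 30 genes, all higher (33.3%, beside 7.4% of all probes higher without overlap). None passed the adjusted test. The 3 with an unadjusted p under 0.05 (10%, beside 2.83%) were TIS11, which degrades transcripts of iron-using proteins (0.16 ± 0.039, SE), the siderophore transporter gene ARN2 (0.14 ± 0.049) and the vacuolar oxidase gene FET5 (0.07 ± 0.030). The list's median level was -0.089 and -0.071 in npl3 medium, -0.15 and -0.097 in wild-type medium, -0.17 on both cbf1 arrays and -0.38 to -0.33 in the second set.

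Tested directly against each other in limma, npl3 and cbf1 medium differed in 2 of 6388 probes (0.0313%), TIS11 and SIT1, each with an adjusted p of 0.0382. TIS11 was at -0.25 and -0.28 in npl3 medium, at -0.64 and -0.66 in cbf1 medium and at -0.44 and -0.40 in wild-type medium. It was 0.39 ± 0.039 higher in npl3 than in cbf1 medium (SE, n = 2 arrays per medium), and the wild-type arrays lay between. SIT1, a transporter of iron bound to ferrioxamine, was at -0.31 and -0.37 in npl3 medium, -0.79 and -0.83 in cbf1 medium and -0.46 and -0.37 in wild-type medium. Its difference between npl3 and cbf1 medium was 0.47 ± 0.051, and from wild-type medium it was 0.07 ± 0.051 for npl3 and -0.40 for cbf1, which share the wild-type arrays. Of the 30 iron genes 27 were higher in npl3 than in cbf1 medium. The count of 2 calls was lost when either npl3 array was left out, with print-tip loess, with median centring and with an offset of 0. Both calls were also lost with no dye term and with only the 6 arrays of set 1 in the fit. With the deposited log2 table, and with a separate dye term in each set, 1 call was left. An unadjusted p under 0.05 was found for 96 probes (1.5%).

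**Figure D5:**
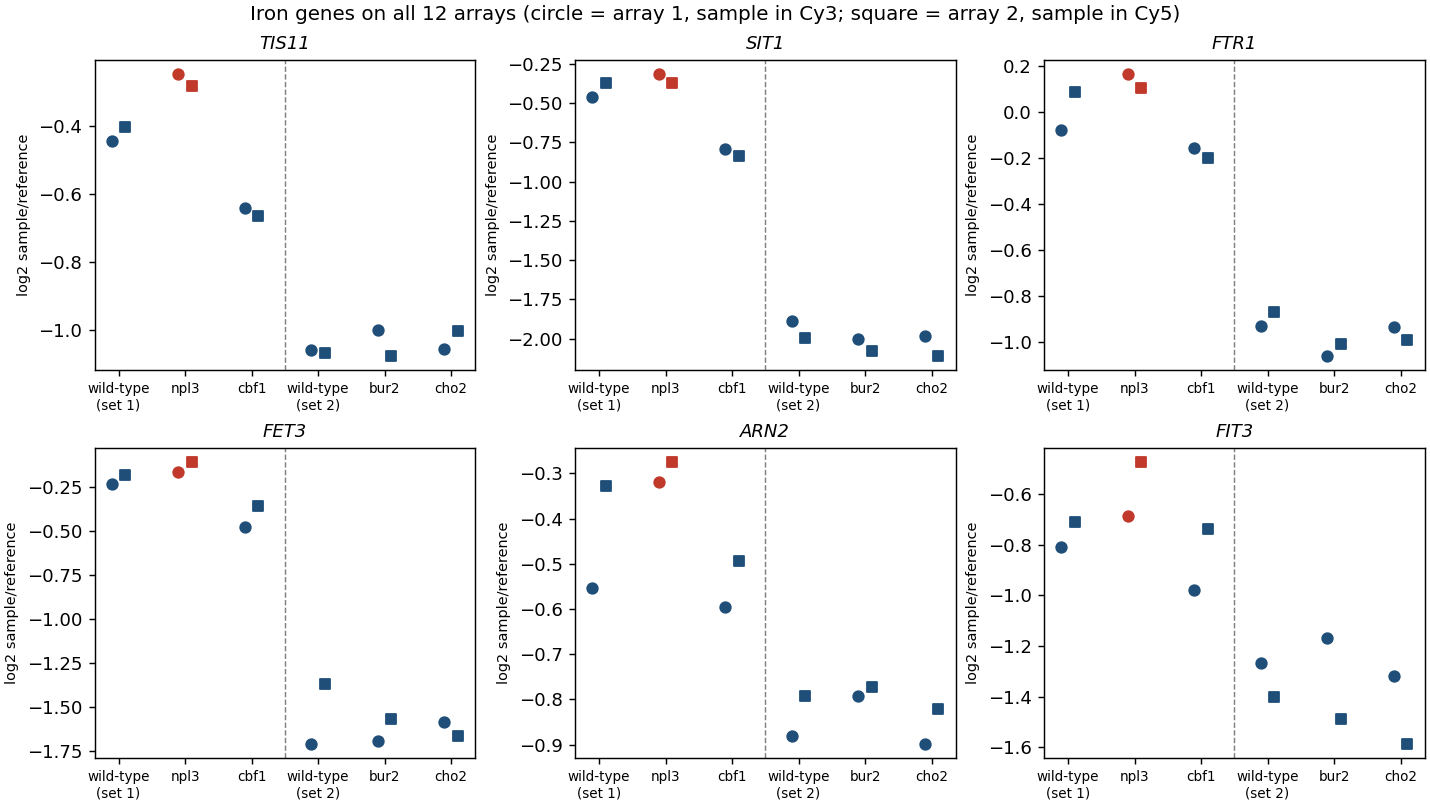
Level (log2 sample over reference) of iron genes on all 12 arrays, with circles for array 1 and squares for array 2 and a dashed line between the sets. TIS11 and SIT1 lie at -0.25 and -0.28 and at -0.31 and -0.37 in npl3 medium, above cbf1 medium, and both are lower in all 6 arrays of the second set.

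The difference of npl3 medium from its wild-type medium was also tested against the same difference for bur2 and cho2 medium, which have wild-type arrays of their own. No probe was called in either (0 of 6388, 0%, smallest adjusted p 1.00 in limma), and the median SE of such a difference was 0.069. An unadjusted p under 0.05 was found for 85 probes (1.33%) against bur2 and for 184 (2.88%) against cho2. The smallest p against bur2 belonged to YLR162W, at 0.30 ± 0.056 (SE), and against cho2 to MTD1, at -0.35 ± 0.058. MTD1 differed from wild-type medium by -0.22 in npl3 medium and by 0.13 in cho2 medium. YOR338W was among the 6 smallest p in both tests, at -0.26 ± 0.077 and -0.37 ± 0.077, and ALG3 (0.28 ± 0.054) and PFK27 (-0.32 ± 0.069), which makes the fructose bisphosphate that activates glycolysis, were among those against cho2.

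Ranked within each dye among the 6 media, npl3 medium had the highest level on both arrays for 195 probes (3.05%) and the lowest for 194 (3.04%). Wild-type medium of the same set was highest for 156 (2.44%) and lowest for 111 (1.74%). Among the 27 probes named here by their p or size, npl3 medium was lowest of the 6 media in both dyes for 13, among them MTD1, PDE2, DSE1 and GCV2, and highest for 4, ALT2, ALG3, SRO9 and SCAB000135. For QDR2, YLR460C and NPL3 the wild-type medium of the set was the lowest of the 6 instead. As the 27 were picked by their distance from wild-type medium, these places are a description.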

How the data were processed

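RNA of 12 samples, 2 per medium, was hybridized to spotted 2-colour arrays. The authors deposited scanner intensity values of each spot in both channels, with local background, not normalized, and a table of log2 ratios that the authors had normalized per print tip. A further deposited table of log2 ratios and adjusted p-values per comparison, made with limma 2.12.0 per the submitters' processing notes, was not used. No genome build is named, so no coordinates are given.

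Each array holds 15552 spots. The 12776 gene spots carry 6388 probes spotted in duplicate, and the 2776 control spots were left out. Of the probes 5326 had a symbol, and 15 symbols had several probes. In limma 3.58.1 (R 4.3.3) the normexp background correction was run with an offset of 50, which draws ratios of dim spots toward 0. Arrays were normalized by loess (span 0.3) on gene spots, every ratio was expressed as sample over reference from the labelled dyes, and duplicate spots were averaged. A single fit over 12 arrays had 6 group means and a dye term, leaving 5 residual degrees of freedom with a prior of 3.29. The two-sided p-values were adjusted over all 6388 probes by the Benjamini-Hochberg method, with a limit of 0.05. An exact permutation of 2 against 2 arrays cannot pass that limit and was not used. The number of arrays limits the precision. The fit was tested on simulated data.

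Members, gene lists and tests were chosen with earlier results of these data known. Named genes are the 12 with the smallest p, the 10 largest differences without overlap in each direction, the deleted genes, called probes, the 6 smallest p against other media, and up to 4 members of a list with the smallest p. The alternatives were background correction, normalization, the deposited log2 table (in which 1 column ran the opposite way and was turned), filters on dim probes, duplicate spots kept apart, covariates, the arrays in the fit and leaving out each array. Array pairs taken alone were added after seeing the data. The labels do not say that array numbers pair arrays of different media.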

Additional observations from a re-analysis of the deposited data

Results flagged for a closer look

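TIS11 and SIT1 differed between npl3 medium and cbf1 medium in the direct test, by 0.3883 and 0.469 on the log2 scale, with an adjusted p of 0.0382 each in limma. Both were higher on each npl3 array than on each cbf1 array. How many calls this test gave under other settings stands with the processing.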

How the results depend on the processing

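Against wild-type medium, 0 calls among 6388 probes became 6 with duplicate spots kept apart (YLR460C, PDR12 and QDR2 higher, YOR338W, MTD1 and VID24 lower). With all 4 wild-type arrays as control, 8 of the 6388 probes were called. Of these, 7 were among the 30 measured iron genes, whose level differs between the sets. Leaving out 1 array gave 0 to 36 calls. The upper end came without array 2 of wild-type medium, which left 1 wild-type array, and there HXK1 differed by -1.27. The 2 calls against cbf1 medium became 9 with duplicate spots apart, 1 with the deposited log2 table and 1 with the replicate block, and 0 with an offset of 0, print-tip loess, median centring, no dye term, the 6 arrays of set 1 alone, or either npl3 array left out (0 to 0). With all 4 wild-type arrays as control on both sides, the wild-type arrays cancel out of a difference between effects. That setting compared npl3 medium directly with bur2 medium (110 calls) and with cho2 medium (36 calls). There the medium cannot be told apart from the set of arrays. With separate controls the main fit gave 0 calls for the difference from the bur2 effect and for that from the cho2 effect. The latter had 2 calls with duplicate spots apart, and 0 to 1 with an array left out, the 1 without array 2 of wild-type medium. The replicate block changed no other count. Deviations of same-numbered npl3 and wild-type arrays correlated at 0.31, and at -0.057 once the dye difference of the other media was subtracted.

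The stress median of -0.12 ran from -0.28 to 0.040 with an array left out, 0.040 without array 1 of wild-type medium, and was -0.31 in pair 1 and 0.055 in pair 2. The ribosome biogenesis median of 0.083 ran from -0.025 (without array 1 of wild-type medium) to 0.20, and was 0.25 in pair 1 and -0.075 in pair 2. Of 508 alternative values of the 27 named genes, none changed direction and 12 newly passed the limit. As these genes were picked by small p or by levels without overlap, a change of direction was unlikely from the start. Settings such as no dye term or duplicate spots kept apart also leave the difference itself unchanged, so the count of directions says little. The cause was not tested. Ratios of probes near background carry little information, and 2 arrays per medium limit every comparison.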

Other observations

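The remaining lists of nutrient and growth genes had medians between -0.013 and 0.028 in npl3 medium for the mean of both arrays, and several had opposite signs in the 2 array pairs. Of 46 genes of amino acid synthesis under Gcn4 control 29 were higher, with a median difference from wild-type medium of 0.028 (0.040 in pair 1 and 0.0016 in pair 2), and of 32 genes of sulfate assimilation and methionine 20 were higher, with a median of 0.0091 (0.022 and -0.028). The 12 genes of leucine and branched-chain synthesis had a median of -0.013 (-0.0019 and 0.025), and levels did not overlap for 6 of them, 3 higher and 3 lower (50%, beside 14.6% of all probes). LEU1, the isopropylmalate isomerase, was at 0.24 and 0.29 in npl3 medium and at 0.33 and 0.53 in wild-type medium (-0.17 ± 0.071, SE, n = 2 arrays per medium). BAT2, the cytosolic branched-chain transaminase, was at -0.22 and -0.23 against -0.03 and -0.18.

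The 19 zinc genes under Zap1 had a median of 0.0082, with 15 higher in pair 1 (median 0.097) and 11 lower in pair 2 (median -0.012). Phosphate genes had a median of -0.0020 (0.0083 and -0.0022 in the pairs), thiamine genes of -0.00020 (-0.012 and -0.0074) and genes of nitrogen uptake of 0.00086 (-0.019 and 0.019). ATG41, a gene that zinc shortage induces, was at -0.39 and -0.34 in npl3 medium and at -0.50 and -0.54 in wild-type medium (0.16 ± 0.052, SE). Genes of the respiratory chain and ATP synthase had a median of -0.0094 (-0.053 and 0.029) and those of the proteasome of 0.0084 (-0.048 and 0.048), and the 21 genes of phospholipid synthesis had -0.0073, with 0.092 and -0.054 in the pairs. LSC2, a subunit of succinyl-CoA ligase, was at -0.05 and 0.01 against 0.16 and 0.07 (-0.14 ± 0.043). None of these genes passed the adjusted test in limma. The 30 genes of the pheromone response had a median of -0.0056, and the 7 a-cell genes, near background in this strain, -0.0043.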
